A study of Rattus norvegicus with 12 samples.

Results

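Transcripts of 10 genes for soluble corneal enzymes and for defence against oxidative stress were followed in 12 rat cornea libraries, with 3 libraries in each of 4 groups. The labels call these groups Control, Alkali-burned and, for the patches, SF/HA-HEP-PAM and SF/HA. The genes were taken by symbol from the deposited table and each matched 1 of its 30452 genes. They were the enzymes Aldh3a1, Tkt, Aldh1a1 and Eno1, the superoxide dismutases Sod1 and Sod2, the inducible enzymes Hmox1 and Nqo1, and the thiol enzymes Prdx1 and Txnrd1. The series concerns a silk-based patch worn on the eye surface. Alkali-burned corneas carry the injury, and SF/HA and SF/HA-HEP-PAM are the 2 patch groups. The labels give no strain, age or time after injury, do not expand the abbreviations, and do not state whether the corneas of either patch group were burned. Whether replicates were separate animals is not stated either, so the p-values rest on the spread among these samples alone, which may be technical.

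The transparent cornea holds a few water-soluble enzymes at levels far above those needed for catalysis, and these are called corneal crystallins by analogy with the lens. Aldehyde dehydrogenases clear the reactive aldehydes that light and lipid oxidation produce, and transketolase belongs to the pentose phosphate pathway, which supplies NADPH for glutathione and thioredoxin. Superoxide dismutases turn superoxide into hydrogen peroxide, peroxiredoxins and glutathione peroxidases remove that peroxide, and the transcription factor Nrf2 drives many of these genes through antioxidant response elements.

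RefSeq promoter sequences on build GRCr8, which is not the build of the expression table, were available for 8 of the genes as 10 windows that run from 250 bases before a transcript start to 50 bases after it. The core of the antioxidant response element, searched as TGACNNNGC on both strands, was found in 3 of these 10 windows, those of Sod2, Prdx1 and 1 of the 2 starts of Txnrd1. It was found in 12.1% of all 33469 RefSeq windows of the same length. The bases before the start are shown for these 3 windows, because the 3 genes share the match and differ in their expression, and for Tkt, which had no match in its window. Each sequence runs 5′ to 3′ on the strand of the gene, and capitals mark the match. The windows are chr1:50050169-50050418 on the minus strand for Sod2, chr5:135383656-135383905 on the plus strand for Prdx1, chr7:22755905-22756154 on the minus strand for Txnrd1 and chr16:5729982-5730231 on the plus strand for Tkt.
Sod2: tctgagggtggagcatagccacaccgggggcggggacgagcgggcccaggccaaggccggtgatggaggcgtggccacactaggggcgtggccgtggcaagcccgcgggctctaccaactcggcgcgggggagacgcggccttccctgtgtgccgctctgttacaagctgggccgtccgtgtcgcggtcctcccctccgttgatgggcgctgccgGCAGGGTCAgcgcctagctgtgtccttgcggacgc
Prdx1: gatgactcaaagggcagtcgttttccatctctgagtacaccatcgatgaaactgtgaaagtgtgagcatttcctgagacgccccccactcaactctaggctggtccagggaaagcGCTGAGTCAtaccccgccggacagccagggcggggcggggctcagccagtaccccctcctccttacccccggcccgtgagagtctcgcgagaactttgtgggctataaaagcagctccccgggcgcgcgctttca
Txnrd1: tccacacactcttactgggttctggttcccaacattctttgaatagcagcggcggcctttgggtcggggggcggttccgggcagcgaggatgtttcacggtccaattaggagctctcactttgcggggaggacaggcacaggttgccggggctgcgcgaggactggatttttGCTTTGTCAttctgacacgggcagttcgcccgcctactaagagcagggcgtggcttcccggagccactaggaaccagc
Tkt: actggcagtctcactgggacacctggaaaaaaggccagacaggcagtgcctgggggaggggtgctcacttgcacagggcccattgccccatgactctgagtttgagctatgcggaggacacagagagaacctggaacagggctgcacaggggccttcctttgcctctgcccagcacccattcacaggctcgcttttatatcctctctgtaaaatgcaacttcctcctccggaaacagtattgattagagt
In Sod2 the match lay 35 to 27 bases before the start, in Txnrd1 78 to 70 bases before it and in Prdx1 135 to 127 bases before it. The AP-1 site, searched as TGANTCA on both strands, was found in 7.33% of all windows and, among these genes, in that of Prdx1 alone. Its 2 places there lay 248 to 242 and 133 to 127 bases before the start, and the second overlaps the antioxidant response element core. A match describes the letters only, and their absence from a window says nothing of the factor.

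Gene-assigned reads per library were 486264 to 1015788 for Control and 499061 to 957696 for SF/HA, and more for Alkali-burned (1173159 to 1265298) and SF/HA-HEP-PAM (1245606 to 2117399). Values are FPKM, the reads of a gene scaled to the depth of its library and to the genomic span of the gene, introns included. Differences are log2 differences of FPKM + 1 from limma over all 12 libraries, given with the standard error (SE). A gene was called where the Benjamini-Hochberg adjusted p was below 0.05 and the log2 difference above 1 or below -1. Of the 10 genes, 9 were at or above 1 FPKM in all 12 libraries and were tested among 6112 genes. Aldh1a1, which spans 110835 bases, fell under the FPKM minimum and was tested on its read counts. Control replicate 1 stood apart in tissue markers, with keratocyte and stroma markers summing to 5296 FPKM against 2021 and 2310 FPKM in the other Control libraries, and corneal epithelium markers to 2662 FPKM against 5124 and 4877 FPKM. Neutrophil markers summed to 171 to 207 FPKM in Control, and to 3607 FPKM in Alkali-burned replicate 1, 8857 FPKM in SF/HA replicate 2 and 9913 FPKM in SF/HA-HEP-PAM replicate 3. They summed to 594 to 1394 FPKM in the other 6 libraries. The list was S100a8, S100a9, Csf3r, Cxcr2, Mpo, Ngp, Lcn2, Mmp8 and Camp, and 4 of these 9 reached the minimum for testing. Which cells carried these transcripts was not tested. Epithelial markers were present in every library, and of 11 lens markers Crybb2, Crybb3, Crygs and Lim2 were at 0 reads in all 12. The lens list summed to 4.84 to 6.74 FPKM in SF/HA-HEP-PAM libraries and 0.991 to 2.24 FPKM in the others, with Cryba1, 1 of 2 tested, called higher in all 3 comparisons of SF/HA-HEP-PAM.

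**Figure D1:**
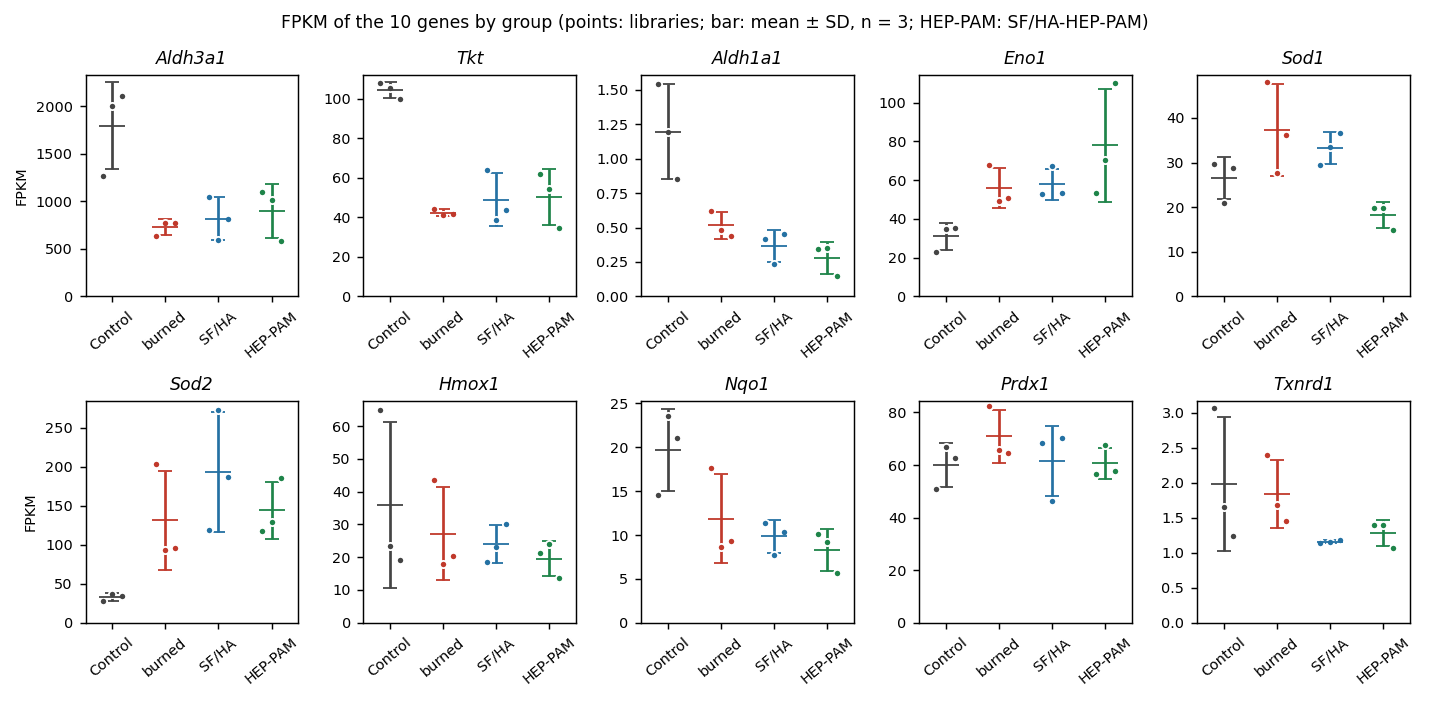
FPKM of the 10 genes in the 4 groups, 1 panel per gene with its own axis from 0. Points are libraries and bars the mean ± SD (n = 3). The Control libraries lie above all others for Aldh3a1, Tkt and Aldh1a1 and below all others for Eno1 and Sod2. The share of all genes separated in this way was not counted, so this is a description only.

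Aldh3a1 (ENSRNOG00000002331, chr10:45892924-45902681, plus strand, build mRatBN7.2) encodes the aldehyde dehydrogenase that is the best-known crystallin of the mammalian corneal epithelium. It stood at 1270, 1999 and 2111 FPKM in Control and at 635, 777 and 777 FPKM in Alkali-burned libraries. It was 1044, 591 and 814 FPKM with SF/HA and 1101, 1018 and 579 FPKM with SF/HA-HEP-PAM. All 9 other libraries lay below the lowest Control library, while the 3 remaining groups overlapped. Its share of all reads fell from 1.75% ± 0.445 in Control to 0.712% ± 0.0800 in Alkali-burned corneas (SD, n = 3). It was 0.797% ± 0.221 with SF/HA and 0.878% ± 0.274 with SF/HA-HEP-PAM. Against Control, Aldh3a1 fell by 1.27 on the log2 scale in Alkali-burned corneas (SE 0.29, adjusted p = 0.0239). The call was lost without any 1 library of the 2 groups other than Control replicate 1, with adjusted p of 0.0599 to 0.0820. The fall against Control was 1.14 with SF/HA (SE 0.29, adjusted p = 0.0458) and 1.01 with SF/HA-HEP-PAM (SE 0.29, adjusted p = 0.0326). The SF/HA call was lost without Control replicate 2 or 3 or SF/HA replicate 2 or 3, and the SF/HA-HEP-PAM call without Control replicate 2 or 3 or SF/HA-HEP-PAM replicate 3.

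Tkt (ENSRNOG00000016064, chr16:5723762-5748698, plus strand) encodes transketolase, an enzyme of the pentose phosphate pathway that is also abundant in corneal epithelium. It was nearly constant within 2 of the groups, at 108, 105 and 100 FPKM in Control and 44.3, 41.1 and 41.6 FPKM in Alkali-burned libraries. The patch libraries varied more, with 64.2, 38.9 and 43.8 FPKM under SF/HA and 61.9, 54.2 and 34.4 FPKM under SF/HA-HEP-PAM. No library outside Control came above 64.2 FPKM, and the other 3 groups overlapped. Tkt fell by 1.28 after the burn (SE 0.23, adjusted p = 0.00863), and this call held without each library in turn. Against Control it fell by 1.11 with SF/HA (SE 0.23, adjusted p = 0.0176) and by 1.08 with SF/HA-HEP-PAM (SE 0.23, adjusted p = 0.00829). The first of these was lost without Control replicate 2 or SF/HA replicate 2 or 3, with adjusted p of 0.0556 to 0.0607, and the second without SF/HA-HEP-PAM replicate 3, where the difference was -0.84.

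Aldh1a1 (ENSRNOG00000017619, chr1:218042127-218152961, plus strand) encodes a second cytosolic aldehyde dehydrogenase, which also makes retinoic acid from retinal. It was 1.54, 1.19 and 0.853 FPKM in Control and 0.623, 0.485 and 0.437 FPKM in Alkali-burned libraries. SF/HA libraries held 0.419, 0.235 and 0.452 FPKM and SF/HA-HEP-PAM libraries 0.347, 0.349 and 0.145 FPKM. These FPKM values are scaled to a span of 110835 bases and rest on 13 to 117 reads per library. They are therefore not comparable with the FPKM of shorter genes. In Control, Aldh1a1 held a mean of 0.0132% of all reads, at 1.19 FPKM. Sod1, which spans 5692 bases, held 0.0151% there, at 26.5 FPKM. For Aldh1a1 every Control library lay above every other library. On read counts (limma with voom, 8653 genes) Aldh1a1 fell by 1.16 after the burn (SE 0.30, adjusted p = 0.0195), by 1.60 with SF/HA against Control (SE 0.34, adjusted p = 0.00862) and by 2.07 with SF/HA-HEP-PAM against Control (SE 0.31, adjusted p = 0.000217). In that fit 7.62%, 4.87% and 17.8% of genes were called in these 3 comparisons. Both patch calls held without each library in turn. The burn call was lost without Control replicate 1, where the difference was -0.98, and without Control replicate 2 or Alkali-burned replicate 2 or 3, with adjusted p of 0.0629 to 0.0820. On log2(FPKM + 1) with no minimum level, a scale that compresses values near 1 FPKM, the 3 differences were -0.52, -0.67 and -0.77 and none was called.

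Eno1 (ENSRNOG00000017895, chr5:160719951-160731336, plus strand) encodes enolase, a glycolytic enzyme that also serves as a crystallin in some species. Its levels ran opposite to those of the other 3 crystallin enzymes. It was 22.9, 34.6 and 35.4 FPKM in Control, 67.8, 49.3 and 51.0 FPKM in Alkali-burned, 52.7, 67.2 and 53.6 FPKM in SF/HA and 53.6, 70.4 and 110 FPKM in SF/HA-HEP-PAM libraries. All 9 libraries outside Control lay above the highest Control library. Eno1 rose by 1.27 with SF/HA-HEP-PAM against Control (SE 0.27, adjusted p = 0.00840). Without SF/HA-HEP-PAM replicate 3 the difference was 0.99, under the minimum for a call. The burn difference of 0.85 (SE 0.27, adjusted p = 0.0787) and the SF/HA difference of 0.90 against Control (SE 0.27, adjusted p = 0.0783) did not pass.

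Sod2 (ENSRNOG00000019048, chr1:47636528-47645189, minus strand) encodes the manganese superoxide dismutase of mitochondria. It was 27.5, 37.0 and 34.1 FPKM in Control and 204, 93.3 and 95.9 FPKM in Alkali-burned libraries. It was 119, 272 and 187 FPKM with SF/HA and 117, 129 and 186 FPKM with SF/HA-HEP-PAM. The lowest library outside Control, at 93.3 FPKM, lay far above the highest Control library. Sod2 rose by 1.87 after the burn (SE 0.36, adjusted p = 0.0110), by 2.45 with SF/HA against Control (SE 0.36, adjusted p = 0.00336) and by 2.08 with SF/HA-HEP-PAM against Control (SE 0.36, adjusted p = 0.00319). Each of these 3 calls held without each library in turn. The highest library of each of the other 3 groups in Sod2 was Alkali-burned replicate 1, SF/HA replicate 2 and, at 186 FPKM, SF/HA-HEP-PAM replicate 3, which were also the highest of their groups in summed neutrophil markers. Without these 3 libraries and Control replicate 1 the differences were 1.39, 2.04 and 1.76, all called. Of 9 neutrophil markers 4 were tested, and Mpo was at 0 in all 12 libraries. None of the 4 was called after the burn or with SF/HA against Control. With SF/HA-HEP-PAM against Control 2 were called higher. Of macrophage markers, 8 of 9 tested rose after the burn, and 7 of 9 rose in each patch group against Control. They summed to 95.9 to 130 FPKM in Control and 221 to 448 FPKM elsewhere.

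**Figure D2:**
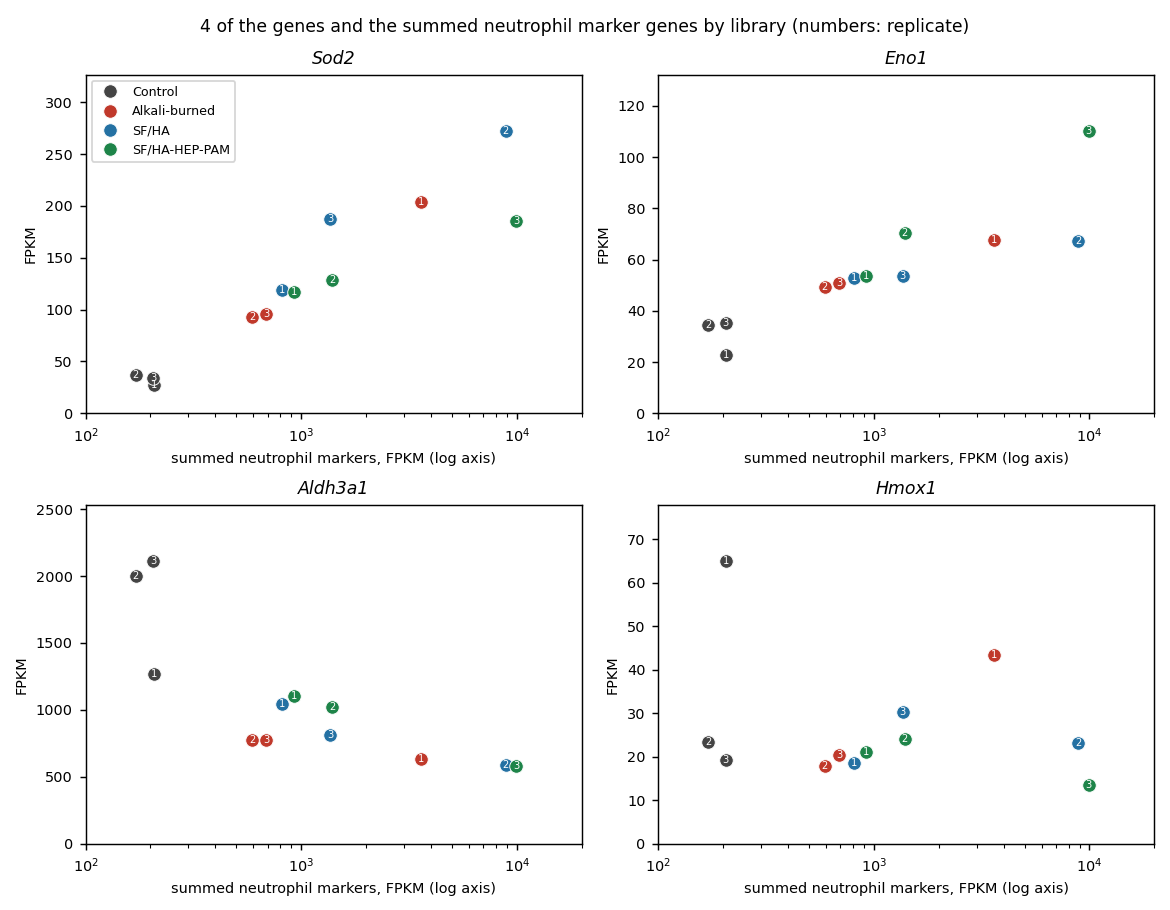
FPKM of Sod2, Eno1, Aldh3a1 and Hmox1, 4 genes chosen after their values were seen, against the summed FPKM of neutrophil markers on a log axis; each point is a library with its replicate number. In each group other than Control the library richest in neutrophil markers was the highest in Sod2 and Eno1 (Alkali-burned replicate 1, SF/HA replicate 2, SF/HA-HEP-PAM replicate 3) and the lowest in Aldh3a1.

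The same 3 libraries were the highest of their groups in Eno1, at 67.8, 67.2 and 110 FPKM, and the lowest in Aldh3a1, at 635, 591 and 579 FPKM. Without them and Control replicate 1, the differences from Control in SF/HA-HEP-PAM corneas were 0.80 for Eno1, -0.82 for Tkt and -0.96 for Aldh3a1, under the minimum for a call. Each still passed on adjusted p (limma, 0.0145, 0.0298 and 0.00715). With SF/HA against Control, in the same fit, Tkt differed by -0.94, also under the minimum, and Aldh3a1 by -1.15, which was called. After the burn, in the same fit, Aldh3a1 fell by 1.40 and Tkt by 1.29. Summed corneal epithelium markers were 1515 to 2715 FPKM in Alkali-burned, 2063 to 2984 FPKM in SF/HA and 2998 to 3516 FPKM in SF/HA-HEP-PAM libraries, all of them below Control replicates 2 and 3 and not all below Control replicate 1. The members of that list did not all follow the sum: of 9 tested, 2 (Pax6 and Dsg1) were called lower and none higher after the burn. With SF/HA-HEP-PAM 5 were called higher against Alkali-burned (Pax6, Dsg1, Klf5, Epcam and Cdh1) and 3 against Control (Klf5, Krt15 and Gja1), and none lower. The part of the cell mixture in the differences of the 10 genes was not tested, and in whole corneas fewer cells of a type cannot be told apart from less RNA per cell.

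Sod1 (ENSRNOG00000002115, chr11:29456558-29462249, plus strand) encodes the copper and zinc superoxide dismutase of the cytosol. It was 29.6, 21.0 and 28.9 FPKM in Control, 48.1, 27.6 and 36.1 FPKM in Alkali-burned and 29.5, 33.4 and 36.7 FPKM in SF/HA libraries, which overlapped. The SF/HA-HEP-PAM libraries, at 19.9, 19.9 and 15.0 FPKM, lay below all 9 others. In no comparison with Control did Sod1 pass on adjusted p. Sod1 differed by -0.97 between SF/HA-HEP-PAM and Alkali-burned (SE 0.22, adjusted p = 0.0111) and by -0.84 between SF/HA-HEP-PAM and SF/HA (SE 0.22, adjusted p = 0.0413). Both pass on adjusted p, as 22.5% and 8.85% of all genes did, and fall short of the minimum difference. The second did not pass on adjusted p without any 1 of its 6 libraries (0.0668 to 0.148), while the first did without each of its 6. The first was called under median-of-ratios scaling, at -1.15, under a pseudocount of 0.1, and without replicate 1 or 2 of SF/HA-HEP-PAM or replicate 2 of Alkali-burned. Keratocyte and stroma markers were also lower there, summing to 707 to 1195 FPKM in SF/HA-HEP-PAM and 1570 to 5296 FPKM in the 9 other libraries. Of 8 tested, 1 was called lower against Alkali-burned, 2 against SF/HA and 4 against Control, and none higher; their part in the Sod1 difference was not tested. Among genes of similar span (3971 to 5880 bases) the median difference was -0.04 against Alkali-burned and 0.02 against SF/HA.

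The ratio of Sod2 to Sod1 in FPKM was 0.930, 1.76 and 1.18 in Control and 4.25, 3.38 and 2.66 in Alkali-burned libraries. It was 4.05, 8.14 and 5.11 with SF/HA and 5.90, 6.47 and 12.4 with SF/HA-HEP-PAM. Group means were 1.29 ± 0.426, 3.43 ± 0.795, 5.77 ± 2.12 and 8.26 ± 3.62 (SD, n = 3 each). Control lay below all other libraries, Alkali-burned overlapped SF/HA but not SF/HA-HEP-PAM, and the 2 patch groups overlapped.

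Hmox1 (ENSRNOG00000014117, chr19:13467244-13474079, plus strand) encodes heme oxygenase, which breaks down heme and is induced by oxidative and heme stress. It was 65.0, 23.4 and 19.2 FPKM in Control, 43.5, 17.8 and 20.3 FPKM in Alkali-burned, 18.6, 23.2 and 30.2 FPKM in SF/HA and 21.1, 24.0 and 13.5 FPKM in SF/HA-HEP-PAM libraries. All 4 groups overlapped, and the 2 highest values came from Control replicate 1 and Alkali-burned replicate 1. The burn difference was -0.29 (95% interval -1.31 to 0.74, adjusted p = 0.754), and without Control replicate 1 it was 0.24. No comparison called Hmox1. Its intervals were the widest of the 9 tested genes, and a 2-fold fall lies within that of the burn.

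Nqo1 (ENSRNOG00000012772, chr19:35295573-35310557, minus strand) encodes a quinone reductase that is a standard Nrf2 target. It was 14.5, 23.6 and 21.0 FPKM in Control and 17.7, 8.60 and 9.32 FPKM in Alkali-burned libraries. It was 11.4, 7.76 and 10.4 FPKM with SF/HA and 10.1, 9.20 and 5.63 FPKM with SF/HA-HEP-PAM. Both patch groups lay below every Control library, while Alkali-burned replicate 1 lay within the Control range. Nqo1 fell by 1.16 with SF/HA-HEP-PAM against Control (SE 0.30, adjusted p = 0.0204). That call was lost without Control replicate 2 or 3 or SF/HA-HEP-PAM replicate 3, where differences over all libraries left out ran from -1.36 to -0.93. The burn difference of -0.73 (adjusted p = 0.175) and the SF/HA difference of -0.92 against Control (adjusted p = 0.10) did not pass. With library weights the burn difference was -1.04 (adjusted p = 0.0107), and without the 4 libraries that stood apart it was -1.22 (adjusted p = 0.00437), both called.

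Prdx1 (ENSRNOG00000017194, chr5:130147204-130162856, plus strand) encodes a cytosolic peroxiredoxin and had the smallest standard error of the 9 tested genes, 0.19. It was 50.7, 66.9 and 62.5 FPKM in Control, 82.6, 65.6 and 64.4 FPKM in Alkali-burned, 68.5, 46.3 and 70.2 FPKM in SF/HA and 56.6, 67.5 and 57.9 FPKM in SF/HA-HEP-PAM libraries. All groups overlapped. The burn difference was 0.24 (95% interval -0.18 to 0.66), and against Control the difference was 0.02 with SF/HA (-0.40 to 0.44) and 0.02 with SF/HA-HEP-PAM (-0.40 to 0.44), so these 3 intervals hold no 2-fold change. Txnrd1 (ENSRNOG00000009088, chr7:20830045-20907863, minus strand) encodes the cytosolic reductase that keeps thioredoxin reduced. It was 3.07, 1.65 and 1.24 FPKM in Control, 2.39, 1.69 and 1.46 FPKM in Alkali-burned, 1.14, 1.16 and 1.18 FPKM in SF/HA and 1.39, 1.39 and 1.06 FPKM in SF/HA-HEP-PAM libraries. Alkali-burned lay above both patch groups without overlap, and Control overlapped Alkali-burned and SF/HA-HEP-PAM. The largest of its 6 differences was -0.42, for SF/HA against Control (SE 0.21, adjusted p = 0.281), and none was called. The scale compresses values near 1 FPKM, so these differences are understated. On read counts the F-test of Txnrd1 over the 4 groups did not pass either (adjusted p = 0.157).

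Across the set, 3 of 9 tested genes were called after the burn, Aldh3a1 and Tkt lower and Sod2 higher, where 5.69% of all tested genes were called. The same 3 were called with SF/HA against Control, where 4.56% of all genes were called. With SF/HA-HEP-PAM against Control 5 of 9 were called, Aldh3a1, Tkt and Nqo1 lower and Eno1 and Sod2 higher, where 11.6% of all genes were called. This count was 1 without SF/HA-HEP-PAM replicate 3, 3 without Control replicate 2 or 3, and 2 without the 4 libraries together. The 3 comparisons share the Control libraries and are given side by side. A moderated F-test over the 4 groups passed for 5 of 9 genes, with adjusted p of 0.00323 for Sod2, 0.00773 for Tkt, 0.0255 for Eno1, 0.0270 for Aldh3a1 and 0.0273 for Sod1, against 26.7% of all tested genes. It did not pass for Nqo1 (0.0561), Txnrd1 (0.281), Hmox1 (0.654) or Prdx1 (0.667). The F-test count was 3 without replicate 2 of SF/HA-HEP-PAM or replicate 3 of Alkali-burned.

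**Figure D3:**
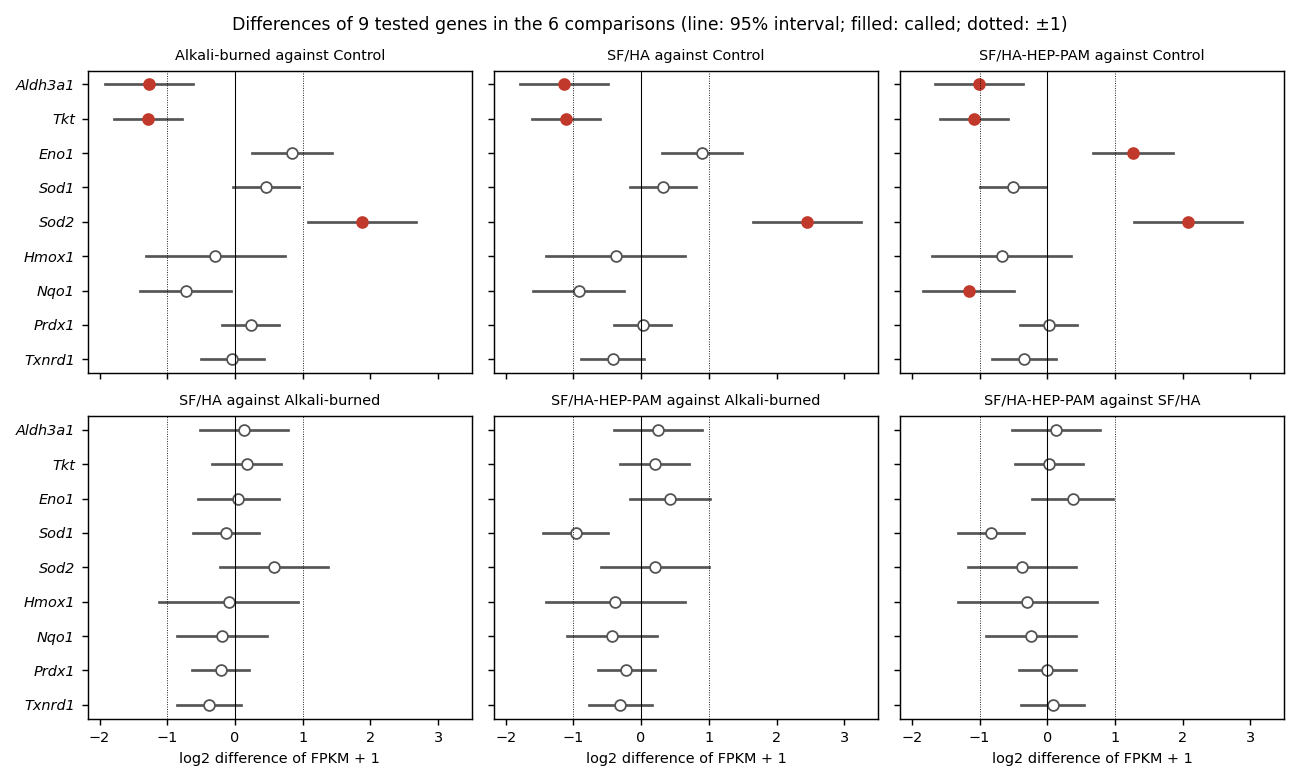
Log2 differences of FPKM + 1 for the 9 tested genes in the 6 comparisons, with 95% intervals; filled points are called and dotted lines mark -1 and 1. Called genes appear in the 3 comparisons with Control, and none of the 9 is called among the other 3 groups.

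None of the 9 tested genes was called with SF/HA against Alkali-burned, where 2.44% of all genes were called, and none passed an unadjusted p of 0.05. For the crystallin enzymes the differences were 0.13 for Aldh3a1 (95% interval -0.52 to 0.78), 0.17 for Tkt (-0.33 to 0.68) and 0.05 for Eno1 (-0.54 to 0.64). Sod2 differed by 0.57 (-0.22 to 1.37). Without 1 library of the 2 groups the difference ran from -0.067 to 0.34 for Aldh3a1, -0.035 to 0.32 for Tkt and -0.061 to 0.19 for Eno1, and for Sod2 from 0.29 without SF/HA replicate 2 to 0.94 without Alkali-burned replicate 1. Nor was any called with SF/HA-HEP-PAM against Alkali-burned, where 11.1% of all genes were called, or against SF/HA, where 4.37% were; Sod1 alone passed an unadjusted p of 0.05 in each. Against Alkali-burned, Aldh3a1 differed by 0.25 (-0.40 to 0.90), Tkt by 0.20 (-0.31 to 0.71), Eno1 by 0.42 (-0.17 to 1.02) and Sod2 by 0.20 (-0.59 to 0.999). The values of Aldh3a1, Tkt and Eno1 moved most with SF/HA-HEP-PAM replicate 3. Without it they were 0.54 for Aldh3a1 (-0.068 to 1.15), 0.44 for Tkt (-0.0055 to 0.893) and 0.15 for Eno1 (-0.40 to 0.69). Sod2 was 0.0066 (-0.88 to 0.90) without that library and moved further, to 0.57, without Alkali-burned replicate 1. Aldh1a1, tested on reads, differed by -0.92 between SF/HA-HEP-PAM and Alkali-burned (SE 0.32, adjusted p = 0.0367), by -0.44 between SF/HA and Alkali-burned (SE 0.35, adjusted p = 0.625) and by -0.47 between the 2 patches (SE 0.36, adjusted p = 0.412). None of these was called, where 22%, 2.75% and 9.35% of all genes were. The first was -0.55 without replicate 3 of SF/HA-HEP-PAM (adjusted p = 0.169), and it was called without replicate 1 (-1.09, adjusted p = 0.0358) or replicate 2 (-1.15, adjusted p = 0.0295) of that group.

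The genes whose profiles over the 12 libraries were most like those that passed the F-test were found as the smallest root mean square difference of centred log2(FPKM + 1), among protein-coding genes with a mean of at least 5 FPKM. For Aldh3a1 they were Mgarp, Urod and Mgst3, at 0.13, 0.19 and 0.20. Tkt was nearest to Mgarp at 0.20, Aldh3a1 at 0.22 and Hmgn3 at 0.23. Both crystallin enzymes thus share their nearest gene, and Aldh3a1 is among the 3 nearest of Tkt. Eno1 was nearest to another glycolytic enzyme, Pkm, at 0.16, then Cxcl16 at 0.21 and Pgam1, also glycolytic, at 0.22. Sod1 was nearest to Rpsa at 0.20, Med29 at 0.21 and RGD1564963 at 0.21. Sod2 had no gene as close: Csf3, a growth factor of neutrophils, lay at 0.34, Cxcl1, a chemokine for neutrophils, at 0.35 and Slpi, a secreted protease inhibitor, at 0.35. These measures describe the same 12 libraries and carry no test.

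**Figure D4:**
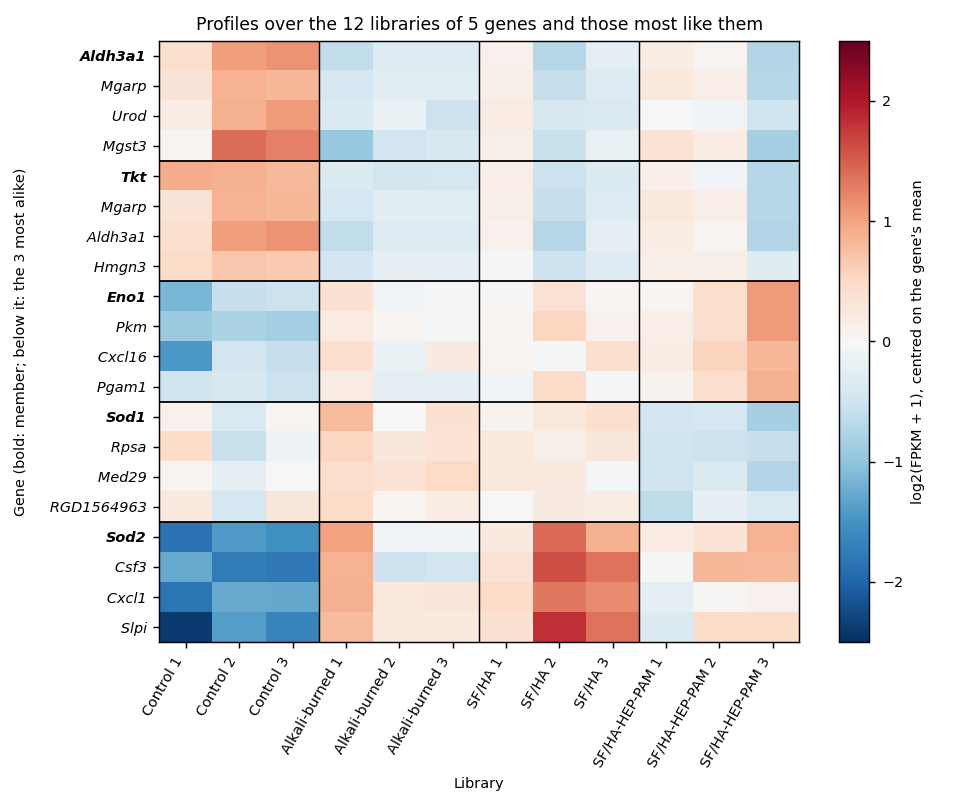
Centred log2(FPKM + 1) in the 12 libraries (columns) for the 5 genes that passed the F-test (bold) and the 3 genes most like each. Red is above and blue below the mean of the gene; Aldh3a1 and Tkt are red in Control, Eno1 and Sod2 are blue there, and Sod1 is blue in the SF/HA-HEP-PAM libraries.

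Other genes of the same pathways were read from 8 lists. Of their 137 symbols 126 were in the table, as 131 gene IDs, of which 73 were tested. After the burn 8 rose, 1 fell and 64 were not called, where 5.69% of all tested genes were called, and the median difference was 0.21 against 0.06 over all tested genes. The rises included Gapdh (1.19), which like Eno1 is glycolytic, Sod3 (1.22), the extracellular superoxide dismutase, the glutathione genes Ggt1 (1.52), Gstp1 (1.37) and Glrx (1.10), Ugdh (1.13) and 1 entry of the ferritin light chain gene Ftl1 (1.71). Ftl1 had tested entries spanning 547, 937 and 3339 bases. Of 7 heme and ferritin entries tested only 1 was called here, so the other Ftl1 entries were not. Mgst3, a microsomal glutathione transferase, fell by 1.51. The calls of Ggt1 and Ftl1 held without each library in turn, and the other 7 were each lost without at least 1. Leaving out Control replicate 3 or any 1 Alkali-burned library reduced the 9 calls to 5.

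Glutaredoxin, encoded by Glrx, reduces protein disulfides with glutathione, and it was called in both comparisons of a patch with Alkali-burned. It was 128 ± 31.9 FPKM in Control and 276 ± 67.2 FPKM in Alkali-burned corneas, against 77.0 ± 22.6 FPKM with SF/HA and 66.3 ± 7.65 FPKM with SF/HA-HEP-PAM (SD, n = 3). Against Alkali-burned it fell by 1.83 with SF/HA (SE 0.27, adjusted p = 0.00525) and by 2.02 with SF/HA-HEP-PAM (SE 0.27, adjusted p = 0.000745), and both calls held without each library in turn. It was the 1 pathway gene of 73 called with SF/HA against Alkali-burned. Both comparisons share the Alkali-burned libraries.

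With SF/HA-HEP-PAM against Alkali-burned 4 of 73 rose and 6 fell, where 11.1% of all tested genes were called, with a median of -0.10 against 0.04 over all tested genes. Sesn2, a stress-induced sestrin that was placed with the thioredoxin and peroxiredoxin genes, rose by 1.77 (SE 0.17, adjusted p = 0.000165), from 4.79 ± 0.587 to 18.8 ± 2.73 FPKM. It also rose by 1.26 against SF/HA (SE 0.17, adjusted p = 0.00289), where it was 7.36 ± 1.73 FPKM and the 1 pathway gene called. Mafg, a small Maf partner of Nrf2, rose by 1.71, Nfe2l1 by 1.07 and Akr1b8, an aldo-keto reductase, by 1.07. Besides Glrx, the falls were Gstm3 (-1.82), Gpx8 (-1.37), Sod3 (-1.27), 1 entry of Ftl1 (-1.20) and Gstm2 (-1.09). The calls of Sesn2, Mafg, Glrx and Sod3 held without each library in turn, and the other 6 were each lost without at least 1; that of Nfe2l1 was lost without any 1 of the 6 libraries. The count of 10 was 6 when replicate 2 of SF/HA-HEP-PAM was left out.

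The other superoxide and peroxide enzymes had a median of -0.73 with SF/HA-HEP-PAM against Alkali-burned over 8 tested genes, 2 of them called and lower. Gpx1, the main cytosolic glutathione peroxidase, was 372 ± 77.6 FPKM in Alkali-burned and 201 ± 37.9 FPKM in SF/HA-HEP-PAM corneas (difference -0.88, SE 0.19, adjusted p = 0.00862), under the minimum for a call like Sod1. Gpx4, which protects membrane lipids, differed by -0.71 (adjusted p = 0.0561). Gpx2, another glutathione peroxidase, was 296 ± 27.7 FPKM in Alkali-burned and 432 ± 14.2 FPKM in SF/HA-HEP-PAM corneas and was not called. Against SF/HA the median of the list was -0.89, beside 0.13 over all tested genes, and none of the 8 was called. On read counts 3 of 9 were called lower against SF/HA, where 9.35% of all genes were called. Against Control the median was -0.26, beside 0.14 over all tested genes, and again none of the 8 was called.

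Against Control, the glycolytic gene Pkm rose by 1.09 with SF/HA and by 1.41 with SF/HA-HEP-PAM, and Ldhb, a lactate dehydrogenase subunit, fell by 1.28 and 1.56. In SF/HA corneas, where 4.56% of all genes were called, 5 of 73 rose and 1 fell, the other rises being Mgst2, Ugdh, Akr1b8 and 1 entry of Ftl1. In SF/HA-HEP-PAM corneas, where 11.6% of all genes were called, 6 rose and 3 fell, with Sesn2 the highest at 2.17 and Gstm3 and Gstm2 lower at -1.49 and -1.18. The calls of Pkm, Ldhb and Sesn2 with SF/HA-HEP-PAM held without each library in turn, and those of Pkm and Ldhb with SF/HA and of Gstm2 and Gstm3 were each lost without at least 1. The SF/HA count of 6 was 3 without Control replicate 2 or 3 and 2 without SF/HA replicate 2. Aldehyde dehydrogenases other than the members had 4 tested genes and pentose phosphate enzymes other than Tkt also 4, and none was called in any of the 6 comparisons. On read counts 7 and 5 were tested. There 1 aldehyde dehydrogenase was called higher after the burn, where 7.62% of all genes were called. The same count was higher with SF/HA-HEP-PAM against Alkali-burned (22% of all genes called) and against Control (17.8%). No pentose phosphate enzyme was called on read counts. Taldo1, the transaldolase that works beside transketolase, was 93.5 ± 39.1 FPKM in Control and 107 ± 16.9 FPKM in Alkali-burned corneas. Txn1, the thioredoxin that Txnrd1 reduces, was 782 ± 279 FPKM in Control and 880 ± 216 FPKM in Alkali-burned corneas, and neither was called. Nfe2l2, which encodes Nrf2, was 2.99 ± 0.835, 3.07 ± 0.431, 3.43 ± 0.252 and 2.59 ± 0.550 FPKM in Control, after the burn, with SF/HA and with SF/HA-HEP-PAM and was called in no comparison.

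**Figure D5:**
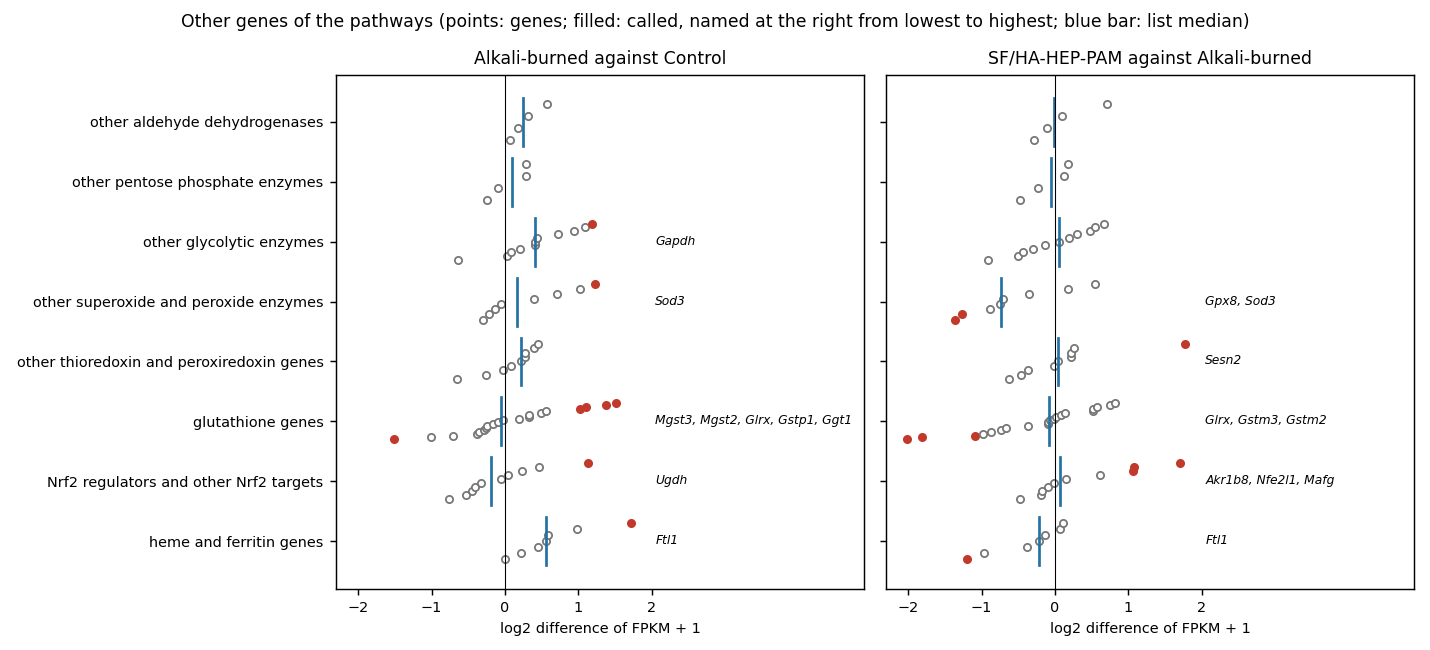
Log2 differences of FPKM + 1 for the tested genes of the 8 pathway lists after the burn (left) and with SF/HA-HEP-PAM against Alkali-burned (right). Points are genes, filled where called and named at the right from the lowest difference to the highest, and bars are list medians; the superoxide and peroxide list has its median at -0.73 on the right.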

How the data were processed

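Poly(dT)-primed cDNA with sample barcodes and molecular identifiers was sequenced from 12 cornea samples, per the labels' protocols. The deposited table holds FPKM values, which the authors computed after trimming with fastp and counting with HTSeq-count, per the series text. The submitters' processing notes list mRatBN7.2 as the build and name STAR, featureCounts, fastp, bcl2fastq and DESeq2, so the 2 sources differ in the counting tool; handling of molecular identifiers and of reads shared with pseudogene copies is not given in the sources used here, which matters for Eno1, Prdx1 and Sod1. Length in the table equals the genomic span of the gene for 100% of genes, so a long gene has a low FPKM for its reads. Multiplying FPKM by length returned whole reads for all values (largest relative deviation 2.16e-06). At 0 reads, 3 reads were taken as the upper limit, 1.42 to 6.17 FPKM for a gene of 1 kb, for counting error only. The table had 30452 genes and 108 further lines without a gene name, which were dropped.

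log2(FPKM + 1) was fitted by limma 3.58.1 (R 4.3.3, variance trend), 1 model of 4 group means over 12 libraries, for the 6112 genes reaching 1 FPKM in 3 or more libraries. Fold changes on this scale understate those of low genes. Genes were called at an adjusted p below 0.05 and a log2 difference beyond 1 in either direction. A voom fit used 8653 genes with at least 10 recovered reads in 3 libraries. Scripts were tested on simulated data. The 10 genes, the lists of pathway and marker genes and the 4 libraries left out together were chosen with earlier results of these data known. All 10 genes are named in every comparison; from the lists at most 4 called genes per list and comparison and the most abundant member, with some further members, such as Gpx1, Gpx4 and Nfe2l2, named after their values were seen. Leaving out libraries in the Aldh1a1 read fit was added after seeing the data. Promoters came from RefSeq on GRCr8, and Aldh3a1 and Hmox1 had no entry. Python 3.11.15 with matplotlib 3.10.9 drew the figures.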

Additional observations from a re-analysis of the deposited data

Results flagged for a closer look

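Both patch groups were compared with the same Alkali-burned libraries, and their differences from these were unlike for Sod1 and Sesn2. The gap equals the difference between SF/HA-HEP-PAM and SF/HA, in which the Alkali-burned means cancel. Whether patch corneas were burned is not stated, so it is given as a difference between groups. For Sod1 this value was -0.84 on the log2 scale (limma, adjusted p = 0.0413), under the minimum for a call. On adjusted p alone 8.85% of all genes passed there. SF/HA-HEP-PAM libraries were lower than all SF/HA libraries in Sod1. Without any 1 of these 6 libraries the adjusted p was 0.0668 to 0.148. For Sesn2 it was 1.26 (limma, adjusted p = 0.00289), and SF/HA-HEP-PAM libraries, at 15.7 to 20.8 FPKM, were higher than all SF/HA libraries, at 6.14 to 9.34 FPKM.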

How the results depend on the processing

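Of 912 alternative values of the 9 tested genes, 812 kept direction and call, 35 lost the call, 10 gained it and 55 changed sign, none of the last among the 11 called values; the largest value with changed sign was 0.31 and the smallest adjusted p there 0.305. Sod2 against Control, in all 3 comparisons, and Tkt after the burn kept their calls under every alternative. The count of the 9 genes called was 1 for SF/HA-HEP-PAM against Alkali-burned with a pseudocount of 0.1, median-of-ratios scaling or adjusted p alone, and 1 against SF/HA with that scaling or adjusted p alone. For SF/HA against Control it was 1 with no filter and 1 with the 6 libraries compared alone, for SF/HA-HEP-PAM against Control 2 without the 4 libraries, and for the F-test 3 with no filter. Without 1 replicate these counts ran from 0 to 1, 1 to 3, 1 to 5 and 3 to 5 for SF/HA-HEP-PAM against Alkali-burned, SF/HA against Control, SF/HA-HEP-PAM against Control and the F-test. Counts of pathway genes after the burn were 3 with no filter, 4 with the compared libraries alone and 14 by voom or adjusted p alone (5 to 7 without 1 replicate). They were 0 with the compared libraries alone and 2 with library weights, voom or without the 4 libraries for SF/HA against Alkali-burned. For SF/HA-HEP-PAM against Alkali-burned they were 20 by voom and 16 by adjusted p alone (6 to 9 without 1 replicate). Against SF/HA they were 3 with quantile normalization, 4 with library weights or without the 4 libraries, 5 with median-of-ratios scaling or voom and 6 by adjusted p alone (1 to 3 without 1 replicate). For SF/HA against Control they were 3 with no filter or the compared libraries alone (2 to 8 without 1 replicate), and for SF/HA-HEP-PAM against Control 14 with a pseudocount of 0.1, 17 by voom and 19 by adjusted p alone. Causes were not tested.

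Small differences changed sign. Quantile normalization gave -0.0019 for Prdx1 after the burn (0.24 without it), 0.012 for Hmox1 between SF/HA and Alkali-burned, -0.012 for Tkt and -0.16 for Txnrd1 between the patches, and -0.054 and -0.12 for Prdx1 with SF/HA and SF/HA-HEP-PAM against Control. Median-of-ratios scaling gave -0.095 for Aldh3a1, -0.19 for Tkt and -0.043 for Txnrd1 between the patches, and -0.18 for Prdx1 with SF/HA-HEP-PAM against Control. Library weights gave 0.089 for Txnrd1 after the burn, 0.14 for Hmox1 and 0.054 for Nqo1 between SF/HA and Alkali-burned, and 0.067 for Hmox1 with SF/HA and -0.020 for Prdx1 with SF/HA-HEP-PAM against Control; voom gave 0.0088 for Txnrd1 after the burn. Without the 4 libraries Txnrd1 was 0.076 after the burn; Sod1 0.056, Hmox1 0.31, Nqo1 0.26 and Prdx1 0.091 between SF/HA and Alkali-burned; Hmox1 0.23 and Nqo1 0.098 between SF/HA-HEP-PAM and Alkali-burned; and, against Control, Hmox1 0.16 with SF/HA and 0.086 and Prdx1 -0.064 with SF/HA-HEP-PAM. Without 1 replicate the ranges were, after the burn, -0.67 to 0.24 for Hmox1 and -0.22 to 0.21 for Txnrd1. Between SF/HA and Alkali-burned they were -0.067 to 0.34 for Aldh3a1, -0.035 to 0.32 for Tkt, -0.061 to 0.19 for Eno1, -0.32 to 0.064 for Sod1, -0.33 to 0.29 for Hmox1 and -0.37 to 0.11 for Nqo1. Between SF/HA-HEP-PAM and Alkali-burned Hmox1 ran from -0.62 to 0.0014, and between the patches Aldh3a1 from -0.090 to 0.41, Tkt from -0.14 to 0.27 and Prdx1 from -0.19 to 0.10. Against Control they were -0.71 to 0.15 for Hmox1 and -0.091 to 0.21 for Prdx1 with SF/HA, and -0.095 to 0.10 for Prdx1 with SF/HA-HEP-PAM.

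Deviations of same-numbered libraries correlated at -0.09 to 0.15 over 18 pairs and those of others at -0.10 to 0.16 over 36. These ranges are alike, but with 3 libraries a group they cannot exclude a pairing by replicate number. With the number as a replicate block, Aldh3a1 was not called against Control after the burn, with SF/HA or with SF/HA-HEP-PAM (adjusted p = 0.0519, 0.0868 and 0.0601) and its F-test gave 0.0600, which lowered these counts of called genes to 2, 2, 4 and 4. Scaling moved the median of all genes by over 0.1 where SF/HA-HEP-PAM was compared, from 0.14 to 0.00 against Control and from 0.13 to -0.02 against SF/HA under median-of-ratios scaling, and from 0.04 to -0.09 against Alkali-burned. Leaving out the 4 libraries, which were the highest of their groups in neutrophil markers or apart in tissue markers, lowers the spread by choice. With 3 libraries a group, 13 to 117 reads limit Aldh1a1.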
